A study of Mus musculus with 16 samples.

Results

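The CDP-choline and CDP-ethanolamine pathways make the most abundant phospholipids of animal membranes, phosphatidylcholine and phosphatidylethanolamine. In each branch a kinase phosphorylates choline or ethanolamine, a cytidylyl transferase activates the product with CTP, and a phosphotransferase of the endoplasmic reticulum or Golgi joins it to diacylglycerol. In muscle the pathway supplies the sarcolemma, the sarcoplasmic reticulum and the mitochondria, and loss of choline kinase beta is a known cause of muscular dystrophy in mice and humans. The enzymes examined here were encoded by 8 of the 23235 gene names in the mRNA table: the kinases Chka, Chkb and Etnk1, the cytidylyl transferases Pcyt1a, Pcyt1b and Pcyt2, and the phosphotransferases Chpt1 and Cept1. The 8 genes were selected on their gene-level differences between these same mice, so those differences are given as a description. Counts of these genes that passed a threshold are printed beside the share of all genes that did, except for some alternative fits in the last section. Nothing is read from these counts.

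The samples were skeletal muscle of 16 male C57BL/6 mice (C57BL/6J in the protocols), with 4 mice in each of 4 groups and 1 library per mouse. Control mice received a normal diet, HFD mice a high-fat diet, HFD + RSV mice the high-fat diet with resveratrol, a plant polyphenol, and HFD + metformin mice (HFD + MET) the high-fat diet with metformin, a glucose-lowering biguanide. All mice were 6 weeks old at the start. The HFD, HFD + RSV and HFD + MET mice received the high-fat diet (60% fat) for 8 weeks. The HFD + RSV and HFD + MET mice were then treated for 6 weeks. The muscle taken was not named in the labels, and the numbers in the labels of the 4 HFD mice begin with 7, which no mouse of another group shares, so that whatever this number marks and the HFD group cannot be told apart. Total counts ranged from 17625909 to 29761026 per mouse in the mRNA table. Markers of fast fibres were high in each library, with summed FPKM (fragments per kilobase of transcript, scaled to library size) of 26123 to 41633. The extract protocol in the labels speaks of retinas, whereas the 4 of 8 retina markers in the table summed to 2.45 to 3.44 FPKM. In bulk muscle, fewer cells of a type and less RNA per cell cannot be told apart.

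Sequences are shown for the features on which the results turn. Of the 8 genes, 7 had a promoter window in RefSeq. The bases upstream of the annotated starts of Chpt1 and Chka are given because the levels of these genes varied together over the mice. They were read from GRCm38.p6, at chr10:88504074-88504220 on the minus strand for Chpt1 and at chr19:3851523-3851772 on the plus strand for Chka. Capitals mark the CCAAT box (CCAAT) and the GC box (GGGCGG) on either strand, with no overlap between them.
Chpt1: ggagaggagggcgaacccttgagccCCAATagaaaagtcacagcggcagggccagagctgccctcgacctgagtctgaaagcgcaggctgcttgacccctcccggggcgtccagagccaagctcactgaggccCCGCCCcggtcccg
Chka: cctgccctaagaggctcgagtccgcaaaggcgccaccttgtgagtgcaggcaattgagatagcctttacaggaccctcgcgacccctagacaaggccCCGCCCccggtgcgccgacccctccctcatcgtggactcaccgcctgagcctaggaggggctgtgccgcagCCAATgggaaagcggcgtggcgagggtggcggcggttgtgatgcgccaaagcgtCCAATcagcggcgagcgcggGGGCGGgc

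The 147 bases of Chpt1 held 1 CCAAT box and 1 GC box, which occurred in 19.6% and 16.2% of the 32851 RefSeq windows over the same length. The 250 bases of Chka held 2 of each, against 33.8% and 32.7% of windows with at least 1. Neither stretch held an E-box (CACGTG) or a TATA box (TATAAA). The full 250-base window of Chpt1, which runs on into the annotated gene and is not printed, held 5 GC boxes and 1 CCAAT box. These matches describe the letters only.

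A pair of splice junctions is shown because each identifies a transcript that carried much of a gene's count. Each is given as 15 bases on either side of the junction, with the downstream exon in capitals.
Chpt1-207: ccccctatacaggagGTTCAAGTTCTTTCT
Chkb read-through: gggctgtgcctcaaaGTGCTGAATAAACCC

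The first joins position 88475333 to 88472984 of chromosome 10 on the minus strand, and occurs in no other Chpt1 transcript of the table. The second joins position 89426488 to 89425347 of chromosome 15 on the minus strand, and leads out of Chkb into Cpt1b, the muscle form of carnitine palmitoyltransferase 1.

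Among the 8 genes, Chpt1 had the highest level per length and Pcyt1b the lowest, with all transcripts of a gene summed. Summed FPKM over the 16 mice were 61.7 ± 53.9 (SD, n = 16) for Chpt1 and 25.5 ± 9.90 for Pcyt1a, the rate-limiting cytidylyl transferase of the choline branch. Chpt1 exceeded Pcyt1a in 16 of 16 mice, although their ranges over the mice overlapped. Pcyt2, Cept1, Chkb and Etnk1 followed at 12.5 ± 2.77, 12.4 ± 1.38, 11.7 ± 3.50 and 10.8 ± 2.04 FPKM, and these neighbours in the order did not separate, since each exceeded the next in only 8 to 10 of 16 mice. Chka was at 2.67 ± 1.26 FPKM and Pcyt1b at 0.122 ± 0.0847 FPKM, and each lay below the preceding gene in 16 of 16 mice with ranges apart. Of the summed Chpt1 FPKM, 75.3% lay in Chpt1-207, a transcript annotated as a target of nonsense-mediated decay. The coding Chpt1-203 was at 8.86 ± 6.98 FPKM, below the coding Pcyt1a-202 at 18.8 ± 9.63 FPKM, so the first place of Chpt1 rested on Chpt1-207.

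The diet comparison asked how the high-fat diet changed these mRNAs. In HFD mice Chpt1 stood at 39.6%, Chka at 55.2%, Pcyt2 at 77.4% and Cept1 at 117% of the control level. The level of Chkb depended on whether a read-through transcript, described further on, was counted with it. Of the 8 genes, 6 had a negative log2FC and 2 a positive one. None of the 8 was called at an adjusted P below 0.05 by edgeR's quasi-likelihood test over 15364 genes, where the share of all genes called was 2.43%. At an unadjusted P below 0.05, the count was 3 of 8, beside 24.2% of all genes. Groups did not overlap for 2 of 8 genes, Pcyt2 and Chpt1, beside 18.3% of all genes. The median log2FC of the 8 genes was −0.25, beside −0.02 for all genes tested.

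**Figure D1:**
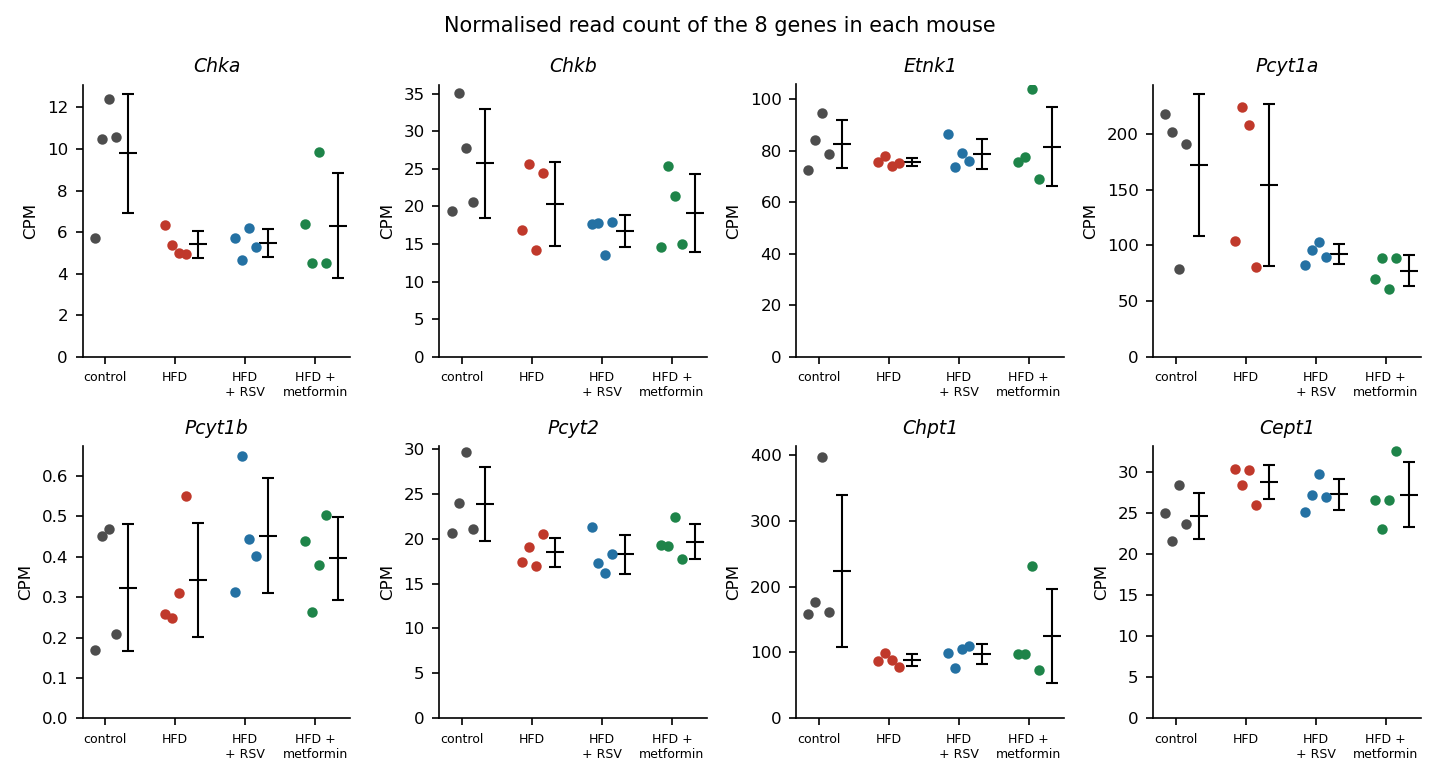
CPM (library-size-scaled counts, vertical axes) of each of the 8 genes in each of the 16 mice, by group, with group means and SD (n = 4). Chpt1 lay below 100 CPM in the 4 HFD mice and at 158 CPM or above in the 4 control mice, whereas Cept1 and Etnk1 stayed within narrow ranges.

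The kinases come first in the pathway. Chka encodes choline kinase alpha. Its CPM (read counts scaled to library size by TMM) were 5.73, 10.5, 12.4 and 10.6 in control mice and 6.36, 5.36, 4.99 and 4.96 in HFD mice. In HFD + RSV mice they were 5.72, 4.64, 6.21 and 5.28, and in HFD + MET mice 6.38, 4.49, 9.84 and 4.49. In 3 of 4 control mice Chka lay above each HFD mouse, and 1 control mouse lay within the HFD range. The log2FC of HFD against control was −0.86 ± 0.25 (SE), that of HFD + RSV against HFD was 0.01 ± 0.25, and that of HFD + MET against HFD was 0.21 ± 0.25.

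Chkb encodes choline kinase beta, which also accepts ethanolamine. It was at 25.7 ± 7.29 CPM (SD, n = 4) in control mice, 20.3 ± 5.62 in HFD mice, 16.7 ± 2.15 in HFD + RSV mice and 19.1 ± 5.22 in HFD + MET mice. The control and HFD groups overlapped, with log2FC −0.34 ± 0.24 (SE). The 4 HFD + RSV mice, between 13.5 and 17.9 CPM, lay below the 4 control mice, between 19.4 and 35.1 CPM. Without the read-through transcript counted under Chkb these groups overlapped, at 9.58 to 17.7 CPM and 15.1 to 25.8 CPM. Etnk1, the ethanolamine kinase, was at 82.5 ± 9.40 CPM in control mice and 75.7 ± 1.55 in HFD mice, with overlapping groups and log2FC −0.12 ± 0.11. It was at 78.7 ± 5.67 CPM in HFD + RSV mice and 81.6 ± 15.3 in HFD + MET mice.

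Among the cytidylyl transferases, Pcyt1a varied most between mice of a group. It was at 218, 202, 78.6 and 191 CPM in control mice and at 104, 224, 208 and 80.8 in HFD mice. In HFD + RSV mice it was at 82.2, 95.7, 103 and 89.1 CPM, and in HFD + MET mice at 70.0, 89.1, 61.2 and 88.7. No mouse lay between 104 and 191 CPM: 3 control and 2 HFD mice lay above this gap, and the other 11 mice, including all 8 treated mice, lay below it. The groups overlapped in each of the 6 comparisons. The log2FC was −0.16 ± 0.33 for HFD against control, −0.74 ± 0.33 for HFD + RSV against HFD and −0.997 ± 0.33 for HFD + MET against HFD.

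Pcyt2, the cytidylyl transferase of the ethanolamine branch, was at 20.6, 24.0, 29.6 and 21.1 CPM in control mice and at 17.4, 19.0, 17.0 and 20.5 in HFD mice. The highest HFD mouse lay just below the lowest control mouse, and the log2FC was −0.37 ± 0.12. In the treated groups it was at 18.2 ± 2.19 CPM (HFD + RSV) and 19.7 ± 1.96 CPM (HFD + MET), overlapping HFD. Pcyt1b, the second choline cytidylyl transferase and known from brain and gonads, was at 0.168 to 0.650 CPM over all mice, too few counts for a difference to be resolved.

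Chpt1 and Cept1 carry out the last step. Chpt1, a cholinephosphotransferase, was at 158, 177, 396 and 162 CPM in control mice and at 86.4, 99.5, 89.2 and 78.7 in HFD mice. In HFD + RSV mice it was at 98.8, 76.2, 106 and 110 CPM, and in HFD + MET mice at 98.2, 98.3, 231 and 74.0. The control mice lay above each HFD and each HFD + RSV mouse, and 1 control and 1 HFD + MET mouse stood far above their groups. The log2FC of HFD against control was −1.34 ± 0.35, and it was −0.91 without the control mouse at 396 CPM. Against HFD, Chpt1 differed by 0.14 ± 0.34 in HFD + RSV mice and by 0.50 ± 0.34 in HFD + MET mice, and the latter value was 0.03 without the HFD + MET mouse at 231 CPM. Cept1, which acts on both choline and ethanolamine intermediates, was at 24.7 ± 2.83 CPM in control mice and 28.8 ± 2.08 in HFD mice, with overlapping groups and log2FC 0.22 ± 0.11. It was at 27.3 ± 1.92 CPM in HFD + RSV mice and 27.3 ± 3.95 in HFD + MET mice.

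The treatment comparisons asked whether resveratrol or metformin changed the mRNAs of mice on the high-fat diet. Against HFD, none of the 8 genes was called in HFD + RSV mice, beside 0% of all genes, or in HFD + MET mice, beside 0.0130%. At an unadjusted P below 0.05, the count was 1 of 8 in each, beside 4.72% and 8.02% of all genes. No gene of the 8 had groups that did not overlap, beside 4.20% and 3.72% of all genes. The comparisons share the HFD mice.

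Against control, none of the 8 genes was called in HFD + RSV mice, beside 0.00651% of all genes, or in HFD + MET mice, beside 0%. At an unadjusted P below 0.05, the counts were 5 of 8 in HFD + RSV mice and 4 of 8 in HFD + MET mice, beside 15.8% and 9.50% of all genes. Chkb, with the read-through transcript included, and Chpt1 had non-overlapping groups in HFD + RSV mice, beside 11.3% of all genes, and none of the 8 did in HFD + MET mice, beside 3.53%. Chpt1 stood at a log2FC of −1.19 ± 0.34 and −0.83 ± 0.34 in the HFD + RSV and HFD + MET mice, and Chka at −0.85 ± 0.25 and −0.64 ± 0.25. Between the treatments, 0 of 8 genes were called or passed unadjusted, beside 0% and 4.68% of all genes, and 0 had non-overlapping groups, beside 1.56%.

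**Figure D2:**
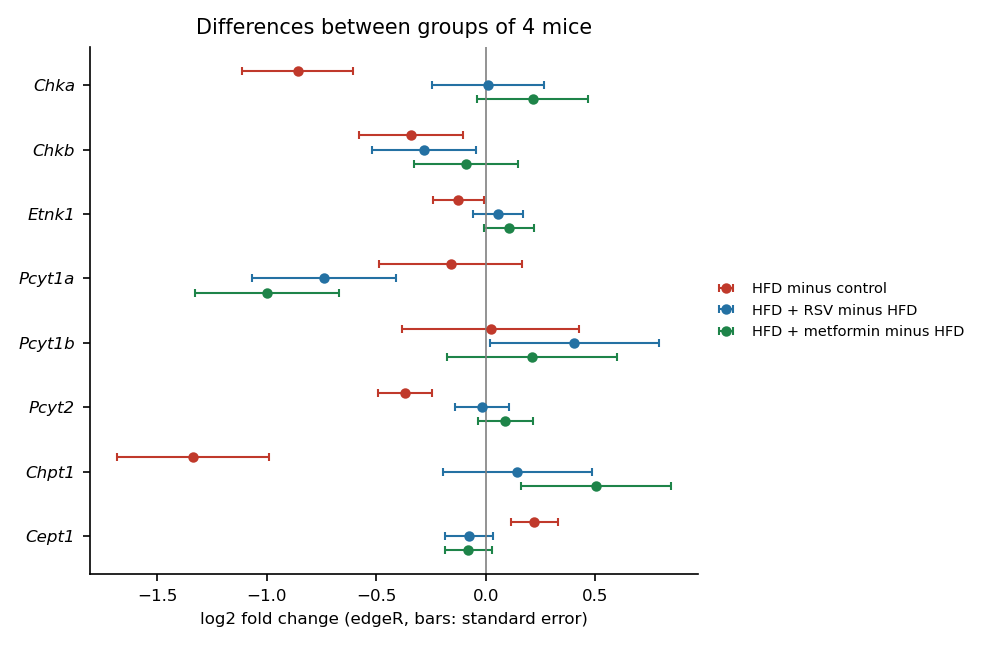
The log2FC of each of the 8 genes (points, horizontal axis) with its SE (bars) from edgeR, for HFD against control and for each treated group against HFD. Chpt1 at −1.34 and Chka at −0.86 lie lowest for HFD against control, and Pcyt1a at −0.74 and −0.997 lies lowest for the treated groups against HFD.

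By DESeq2 at an adjusted P below 0.05, 2 of the 8 genes passed for HFD against control (Chka and Chpt1), beside 10.1% of all genes. For HFD + RSV against control 1 passed (Chpt1), beside 2.97%, and for HFD + MET against control 1 (Pcyt1a), beside 1.01%. The study's methods name a P below 0.05 and an absolute log2FC above 1. With these limits, applied here to the unadjusted P, the count was 1 in each of these comparisons, beside 4.94%, 2.72% and 1.63% of all genes. The gene was Chpt1 for HFD and for HFD + RSV, and Pcyt1a for HFD + MET.

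The table resolved the 8 genes into 66 transcripts, of which 28 were annotated as protein coding, 24 as retained intron, 9 as targets of nonsense-mediated decay (NMD) and 5 as processed transcripts. Single transcripts gave no call for HFD against control among 39 tested, beside 0.0157% of 44573 transcripts, and 14 passed unadjusted, 2 higher and 12 lower, beside 13.1%. With an absolute log2FC above 1 as well, the count was 8, beside 5.12%.

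The transcript with the most Chpt1 counts was not annotated as coding for the full enzyme. Chpt1-207, an NMD transcript of 1447 bases, held 57.4% of the Chpt1 counts summed over the 16 mice. Chpt1-203, a coding transcript of 4863 bases, held 34.7%. The mean share of Chpt1-207 per mouse was 63.5% in control, 62.3% in HFD, 38.7% in HFD + RSV and 54.2% in HFD + MET mice. Exon 8 and the last exon start at the same bases in both, and exon 8 is 93 bases longer in Chpt1-207, where it ends at the junction shown above. Its last exon is 146 bases long, against 3471 in Chpt1-203. Chpt1-207 had counts of 1386, 4094, 8312 and 1507 in control mice and of 1040, 1614, 1358 and 1069 in HFD mice. In HFD + RSV mice it had 866, 933, 1124 and 376 counts, and in HFD + MET mice 1055, 1891, 891 and 1425. The high Chpt1 level of 1 control mouse thus lay in Chpt1-207, whereas in the HFD + MET mouse with high Chpt1 it lay in Chpt1-203, with 3623 counts against 497 to 617 in the other 3. Scaled to CPM, Chpt1-203 was at 55.7 ± 17.2 in control mice and 28.1 ± 6.39 in HFD mice. It was at 52.3 ± 19.4 in HFD + RSV mice and 56.8 ± 64.5 in HFD + MET mice. In the same order Chpt1-207 was at 153 ± 117, 55.3 ± 10.1, 36.5 ± 14.0 and 54.4 ± 13.8. For Chpt1-203 the HFD mice (23.6 to 37.6 CPM) overlapped control (34.5 to 72.1) and HFD + RSV mice (30.5 to 77.5). By edgeR its unadjusted P was 0.106 for HFD against control and 0.129 for HFD + RSV against HFD, and neither was called.

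Pcyt1a counts lay mostly in Pcyt1a-202, a coding transcript with 87.4% of them, whose deposited coordinates differ from GENCODE M21. Without it, Pcyt1a was at 14.8 ± 3.85 CPM in control mice, 19.7 ± 5.66 in HFD mice, 13.3 ± 3.44 in HFD + RSV mice and 14.8 ± 1.70 in HFD + MET mice, so the gap between the mice lay in Pcyt1a-202. In Chka, retained-intron transcripts held 67.6% of the counts as a mean of the percentages of the mice. The coding Chka-201 held 21.8% of the counts summed over the mice. Etnk1-201, Cept1-201 and Pcyt2-201 led their genes with 86.3%, 72.9% and 67.6% of the summed counts.

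The share of a gene's counts in its leading transcript was also compared. It comes from the same counts as the gene's level, and where 1 transcript carries a gene's differences, as in Pcyt1a, the share moves with that level and is a description. Each of 40 comparisons of 4 mice with 4 used an exact permutation test, two-sided, in which P cannot go below 0.0286. None passed after Benjamini-Hochberg adjustment, and the smallest adjusted P was 0.571. Unadjusted, 2 reached P = 0.0286 in the exact test. Etnk1-201 held 87.7 ± 0.755% of counts in HFD mice and 85.2 ± 0.913% in control mice, and Pcyt1a-202 held 80.5 ± 3.57% in HFD + MET mice and 90.7 ± 2.80% in control mice. Chpt1-207 held 38.7 ± 16.6% in HFD + RSV mice and 62.3 ± 7.20% in HFD mice, with an exact permutation P of 0.0571.

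**Figure D3:**
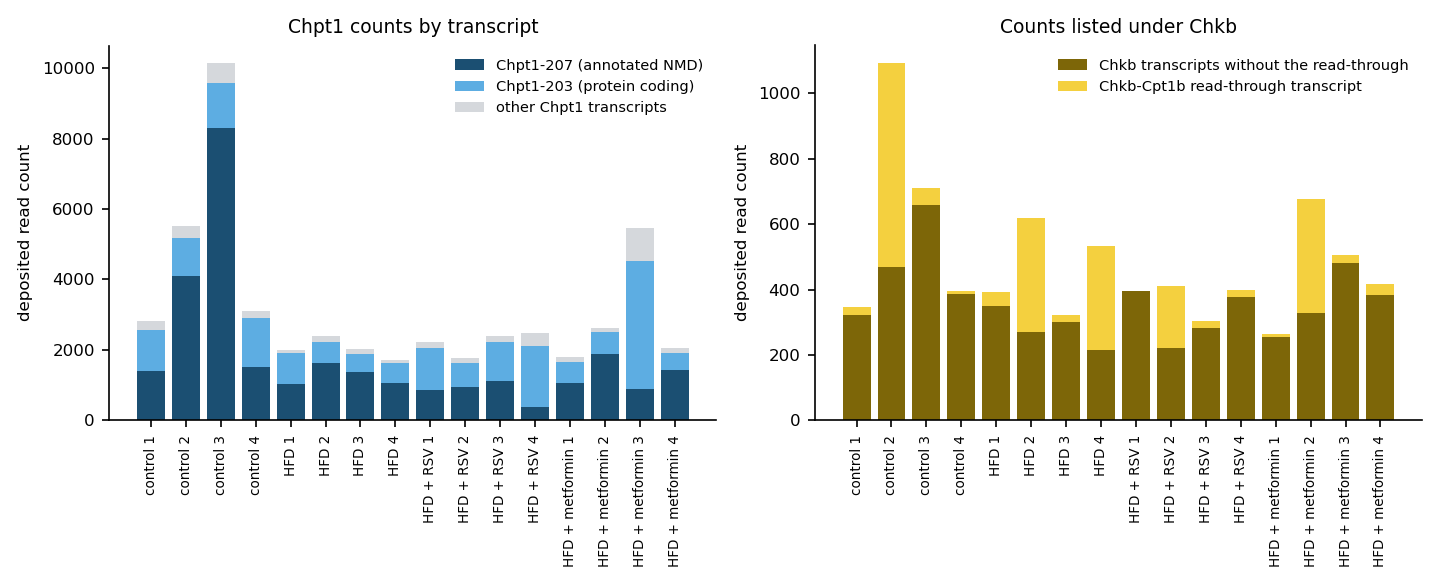
Stacked bars of deposited read counts in each mouse, for Chpt1 by transcript (left) and for the counts listed under Chkb with and without the read-through transcript (right). The control mouse with the highest Chpt1 had 8312 counts in Chpt1-207, and the HFD + MET mouse with the highest Chpt1 had 3623 counts in Chpt1-203, while the read-through transcript is large in 5 mice.

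A read-through transcript contributed to Chkb. It spans chr15:89416405-89429696 on the minus strand in 27 exons, is annotated as an NMD transcript of a separate gene (Gm44502) in GENCODE M21, and has 1552 exon bases in the span of Chkb and 2744 in that of Cpt1b. Its counts were 23, 624, 51 and 10 in control mice, 41, 349, 20 and 317 in HFD mice, 0, 190, 21 and 23 in HFD + RSV mice and 9, 348, 25 and 34 in HFD + MET mice. In 5 mice it made up 46.2% to 59.5% of the counts filed under Chkb, and in the other 11 mice 0% to 10.5%. Without it the lowest HFD + RSV mouse was mouse 2, at 9.58 CPM, and Chkb was at 19.7 ± 4.51 CPM in control, 12.4 ± 2.31 in HFD, 14.2 ± 3.79 in HFD + RSV and 15.1 ± 3.56 in HFD + MET mice. The log2FC of HFD against control was then −0.67 ± 0.22. Those of HFD + RSV and HFD + MET against HFD turned from −0.28 and −0.09 to 0.19 ± 0.22 and 0.29 ± 0.22. Leaving the transcript out also removes its reads in the 1552 exon bases within Chkb. The 5 mice with large shares were control mouse 2, HFD mice 2 and 4, HFD + RSV mouse 2 and HFD + MET mouse 2. In each group the lowest remaining level, 15.1, 9.92, 9.58 and 12.3 CPM, was of such a mouse. Its part in the change of sign was not tested. Cpt1b itself had a log2FC of −0.04 for HFD against control (adjusted P = 0.918, edgeR).

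The lncRNA table held 19 transcripts in the spans of the 8 genes, of which 11 were tested and none was called for HFD against control by edgeR, beside 1.61% of 17599 lncRNAs. At an unadjusted P below 0.05, 2 passed, both lower and both in Chpt1, beside 17.6%, and 1 also had an absolute log2FC above 1, beside 5.94%. NONMMUT006742.2 (chr10:88473326-88474646) had 740 to 2687 counts in control mice and 379 to 749 in HFD mice, with log2FC −1.11 ± 0.36 and an adjusted P of 0.120 (edgeR). It lies wholly within the last exon of the coding transcript Chpt1-201. NONMMUT006740.2 (chr10:88467255-88470154) had log2FC −0.82 ± 0.29 and an adjusted P of 0.157 (edgeR), and 641 of its bases overlap the last exon of Chpt1-203. NONMMUT006741.2, which did not pass, lies wholly within that exon. It had 11 counts in control mouse 4, 5 in HFD mouse 1, 9 in HFD + RSV mouse 3 and 5 in HFD + MET mouse 1. The other mice had 247 to 1026. All of these lncRNAs were named after their values were seen. Reads of such features and of Chpt1 transcripts may not be told apart by the counting, whose use of strand is not given in the sources used here.

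Protein-coding neighbours were examined because overlapping genes can share reads. Sycp3, a meiotic gene on the opposite strand, lies wholly within Chpt1 and had 0 to 53 counts per mouse. Slc51a overlaps Pcyt1a by 567 bases and C730034F03Rik overlaps Chkb by 320 bases. Dennd2d and Dram2 overlap Cept1 by 771 and 5 bases. None of the neighbours tested was called for HFD against control by edgeR. Dram2 had a log2FC of −0.04 ± 0.11 and Dennd2d of −2.08 ± 0.82 (adjusted P = 0.145, edgeR). C730034F03Rik was at 0.393 to 1.51 CPM in control mice and at 0 in the 4 HFD mice (adjusted P = 0.0970, edgeR).

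The other genes of phospholipid synthesis and turnover comprised 49 genes in 7 lists, of which 46 were tested. For HFD against control, 2 fell and none rose at an adjusted P below 0.05, beside the 2.43% of all genes given above, and in each of the other 5 comparisons 0 of 46 were called by edgeR. By DESeq2, 3 passed for HFD + RSV against control, beside 2.97% of all genes, and none in the other 4. At an unadjusted P below 0.05 by edgeR the counts of 46 were 1 for HFD + RSV against HFD (4.72% of all genes), 5 for HFD + MET against HFD (8.02%), 14 for HFD + RSV against control (15.8%), 6 for HFD + MET against control (9.50%) and 2 for HFD + RSV against HFD + MET (4.68%). The median log2FC of the 46 was −0.08, and 28 were negative. At an unadjusted P below 0.05, 9 of 46 were lower and 4 higher for HFD against control, beside 24.2% of all genes.

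Lpcat3, the acyltransferase that places polyunsaturated chains into phosphatidylcholine, fell in HFD mice. It was at 19.4, 20.9, 26.5 and 21.3 CPM in control mice and at 14.6, 14.2, 14.2 and 12.9 in HFD mice, without overlap. The log2FC was −0.65 ± 0.11 with an adjusted P of 0.0179 (edgeR). In HFD + RSV mice it was at 14.8, 17.7, 15.3 and 17.7 CPM, and in HFD + MET mice at 17.8, 18.1, 22.4 and 16.5, neither called against HFD.

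Crls1, cardiolipin synthase of the mitochondrial inner membrane, also fell. It was at 19.8, 24.9, 45.6 and 18.8 CPM in control mice and at 13.5, 12.9, 14.8 and 8.27 in HFD mice. Groups did not overlap, and the log2FC was −1.14 ± 0.26 with an adjusted P of 0.0438 (edgeR). The highest Crls1 value was that of the control mouse with the highest Chpt1. Over 24 alternative settings the adjusted P (edgeR or DESeq2) ranged from 0.00196 to 0.119 for Crls1, below 0.05 in 11, and from 5.40e-05 to 0.0573 for Lpcat3, below 0.05 in 20. The highest value of both was that without control mouse 3, the mouse with the highest Chpt1, where Crls1 had its smallest difference, −0.78. Both also missed 0.05 without control mouse 2, HFD mouse 1 or HFD mouse 2, and Crls1 without HFD mouse 3 or 4, HFD + MET mouse 1 or any of the 4 HFD + RSV mice, without a filter on low counts, and with only the 2 groups compared.

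By list, phosphatidic acid and diacylglycerol supply had 11 genes tested, 8 of them negative, with a median log2FC of −0.37 and none called. The lists of choline uptake (5 tested), the other ethanolamine genes (3) and the phosphatidylserine and methylation routes (4) had medians of 0.10, 0.00 and −0.27, and none was called. The CDP-diacylglycerol branch, which holds Crls1, and acyl remodelling, which holds Lpcat3, had medians of 0.02 and −0.27 over 6 genes each. Breakdown and transfer had a median of −0.07 over 11 genes, and none was called.

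**Figure D4:**
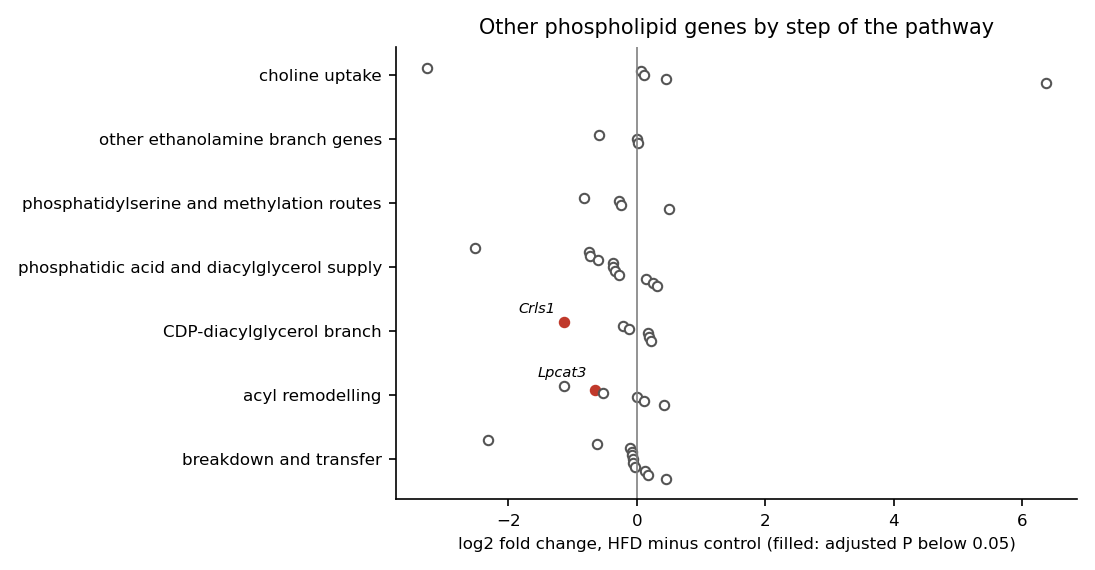
The log2FC of HFD against control (horizontal axis) for the 46 tested genes of the 7 phospholipid lists (rows), 1 point per gene, filled where the adjusted P was below 0.05. Crls1 at −1.14 and Lpcat3 at −0.65 are the filled points.

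Across the 16 mice, levels of some of the 8 genes moved together. Pearson's r of log2 CPM was 0.878 between Chka and Chpt1, 0.852 between Pcyt2 and Chpt1, 0.765 between Chpt1 and Etnk1 and 0.764 between Chka and Pcyt2, over mice that share group differences and cell make-up. Among all genes, those most like Chpt1 were Cmtm4 (r = 0.973) and Acad11 (0.969), those most like Chka Ivns1abp (0.927) and Enc1 (0.916), and those most like Pcyt2 Acacb (0.909) and Trp53inp1 (0.903). For Etnk1 they were Nrp1 (0.917) and Ctnnd1 (0.913), for Cept1 Stag2 (0.872) and Mfsd8 (0.852), and for Chkb Letm1 and Bckdha (0.851 each). The closest to Pcyt1a were 2010111I01Rik (0.777) and Usf2-ps1 (0.775), and to Pcyt1b Arl10 (0.813) and Gm5846 (0.785).

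Markers of other cells differed between the same mice. The 8 white adipocyte markers, none of them at 0, summed to 1071, 917, 4582 and 1561 FPKM in control mice and to 179, 147, 369 and 870 in HFD mice. They summed to 332, 535, 1000 and 216 in HFD + RSV mice and to 1429, 163, 4034 and 290 in HFD + MET mice. The control mouse at 4582 and the HFD + MET mouse at 4034 were those with the highest Chpt1. For HFD against control 7 of the 8 adipocyte markers were lower and none was called, with a median log2FC of −1.90. The 8 slow-fibre markers were all lower with none called, with a median of −3.54, and summed to 25.0, 968, 431 and 744 FPKM in control mice and to 25.2 to 99.3 in HFD mice. The 8 Schwann cell markers were all lower (median −1.35), as were the 6 blood markers (−0.62), and 7 of 8 macrophage markers were lower (−0.26), with none called. For HFD + RSV against HFD, 8 of 8 slow-fibre (median 2.39), 8 of 8 Schwann cell (1.64), 6 of 6 blood (0.91), 6 of 8 adipocyte (0.27) and 6 of 8 macrophage markers (0.07) were higher. For HFD + MET against HFD, 8 of 8 adipocyte (1.74), 7 of 8 slow-fibre (1.41), 6 of 6 blood (1.14), 7 of 8 Schwann cell (0.26) and 8 of 8 macrophage markers (0.17) were higher. None of these markers was called by edgeR. The part of these cells in the differences of the genes described above was not tested. With the 2 mice of highest adipocyte markers left out, which was chosen after seeing the data, the log2FC of HFD against control was −0.91 for Chpt1 and −0.73 for Chka. The remaining control mice, at 1071, 917 and 1561 FPKM of adipocyte markers, still lay above each HFD mouse. This fit therefore keeps a difference in these markers between the groups and says nothing of their part.

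**Figure D5:**
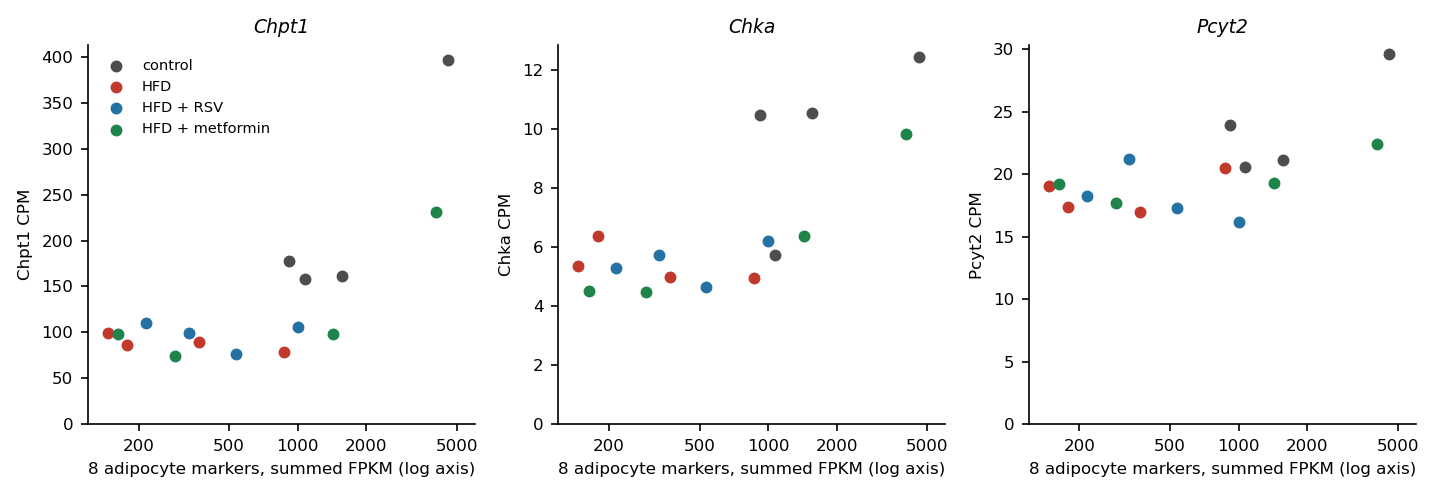
Chpt1, Chka and Pcyt2 in CPM against the summed FPKM of 8 white adipocyte markers on a log axis, 1 point per mouse. The control mouse at 4582 FPKM and the HFD + MET mouse at 4034 FPKM have the highest Chpt1.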

How the data were processed

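RNA of skeletal muscle from 16 mice, 1 library per mouse, was sequenced after removal of ribosomal RNA according to the study's methods. Per the submitters' processing notes the tools were fastp and HISAT2 on GRCm38, and per the study's methods fragments were counted with StringTie. The authors deposited expected counts per transcript, whole numbers without normalization, in an mRNA table and an lncRNA table. The authors also deposited FPKM beside each count. Of the mRNA transcripts, 4 that were split over 2 lines were joined, and each column was matched to a mouse by its label.

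Counts were summed per gene name and analysed with edgeR 4.0.16 in R 4.3.3. Low counts were removed by filterByExpr with the groups (at least 10 counts in enough mice and 15 in all), libraries were scaled by TMM, and all 16 mice were fitted with a robust quasi-likelihood model, over 15364 genes. P was adjusted by Benjamini-Hochberg over all genes, transcripts or lncRNAs tested, and a feature was called at an adjusted P below 0.05. The SE of a log2FC was derived from the F statistic of its test, as the size of the log2FC over the root of F. The edgeR P-values test a difference between groups against the spread between mice, estimated over all mice in the fit. DESeq2 1.42.0, RLE size factors, no filter, 2 groups only, no robust estimation and leaving out each mouse were tried as alternatives, and the test was checked on simulated counts. Transcript shares were compared by exact two-sided permutation tests.

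The genes and all lists were chosen with earlier results of these data known. Named are the 8 genes, pathway genes called in any comparison, the 2 genes most correlated with each member, transcripts with the highest mean FPKM and genes overlapping or near a member. For 97.4% of the mRNA transcripts the deposited coordinates matched GENCODE M21. Sequences are from RefSeq promoter windows (GRCm38.p6) and transcripts of the reference. Proteins were not analysed here.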

Additional observations from a re-analysis of the deposited data

Results flagged for a closer look

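Of 64 groups of 4 mice examined, 5 held a mouse far from the other 3 by Dixon's criterion, where chance gives about 1 in 20. Chpt1 was at 396 CPM in control mouse 3, against 177 CPM in the nearest and 158 CPM in the farthest of the others. In HFD + MET mouse 3 it was at 231 CPM, against 98.3 and 74.0 CPM. These are the mice with the highest adipocyte marker sums, 4582 and 4034 FPKM. They also had the highest blood marker sums of their groups, 1291 and 2092 FPKM. The part of either cell type was not tested.

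Chkb was at 13.5 CPM in HFD + RSV mouse 3, against 17.7 to 17.9 CPM in the other 3. Without the read-through transcript HFD + RSV mouse 2 was lowest, at 9.58 CPM, so the distance of mouse 3 depended on counts of that transcript. The leading transcript Chkb-201 held 14.0% of the Chkb counts in HFD + MET mouse 2, against 40.0% to 44.7% in the others, and the read-through transcript held 51.4% in that mouse. The leading transcript of Pcyt1b held 83.3% of the counts in HFD mouse 2, against 100% in the others, on few counts.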

How the results depend on the processing

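No paired analysis was possible because the labels do not say that a number links mice of different groups. For the 8 genes, 1122 of 1124 alternative values of log2FC lay within 1 SD of the main value. This SD is that of log2 CPM between mice of a group. Leaving out 1 of 4 mice moves a group mean little against it, so the count is no measure of stability. For HFD against control, Chpt1 ranged from −1.47 to −0.91 and still counted as within 1 SD. The number of the 8 genes called for HFD against control, 0, was 2 by DESeq2, beside 10.1% of all genes. It was 1 by the looser rule (unadjusted P below 0.05 and absolute log2FC above 1), beside 4.94%. It was 1 with only 2 groups, 2 with the 12 mice without metformin and 1 without both adipocyte-rich mice. With 1 mouse left out it was 0 to 2 (2 without control mouse 1 or HFD + MET mouse 3). For HFD + RSV and for HFD + MET against control the number was 1 by DESeq2, beside 2.97% and 1.01%. It was 1 by the looser rule, beside 2.72% and 1.63%, 1 without both adipocyte-rich mice, and 0 to 1 with 1 mouse left out. For HFD + RSV the gene was Chpt1 each time. For HFD + MET it was Pcyt1a by DESeq2 and by the looser rule, and Chpt1 in the fits with mice left out. For the other fits the share of all genes is not given here, and nothing is read from their counts.

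The number of pathway genes called for HFD against control, 2, was 8 by DESeq2 (10.1% of all genes) and 4 by the looser rule (4.94%). It was 1 without a filter, 4 with only 2 groups, 7 with the 12 mice and 0 to 7 with 1 mouse left out. It was 0 without control mouse 2 or 3 or HFD mouse 1 or 2, and 7 without HFD + MET mouse 3. For HFD + MET against HFD the number was 3 by the looser rule. For HFD + RSV against control it was 3 by DESeq2 (2.97%) and 3 by the looser rule (2.72%). With the 12 mice it was 1, and with 1 mouse left out 0 to 1. Nothing is read from the counts without a share of all genes beside them. By the looser rule 8 transcripts of the genes and 1 lncRNA passed for HFD against control, beside 5.12% of transcripts and 5.94% of lncRNAs. Over all genes, DESeq2 gave 1544 calls for HFD against control and edgeR 374. Of 365 alternative transcript shares 3 reversed: Chkb-201, HFD + MET minus HFD, from 4.22 points to −0.0188 by FPKM and −0.239 without the read-through transcript, and Chpt1-207, HFD minus control, from −1.20 to 3.18 points by FPKM. The causes were not tested. The fits with 12 mice, without both adipocyte-rich mice and without the read-through transcript were chosen after seeing the data. With 4 mice per group, Pcyt1b counts were too low to resolve a difference.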
